A study of Rattus norvegicus with 6 samples.

Results

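Genes of corticoid signalling were followed by RNA sequencing of the neuroretina in male rats of the Goto-Kakizaki (GK) strain, which inherits type 2 diabetes without obesity, at 14 months of age. The 10 genes were chosen by name: the receptors Nr3c2 and Nr3c1, the enzymes Hsd11b1 and Hsd11b2, and Sgk1, Fkbp5, Tsc22d3, Klf9, Arl4d and Nedd4l, listed as targets of the receptors or parts of their pathway. All 10 were found among the 28358 genes of the tables, and 8 of them were among the 13242 that passed the filter on low counts. In 3 samples, 5 µL of microspheres of the degradable polymer PLGA carrying 6.2 µg of spironolactone had been injected once into the vitreous. In the other 3 samples the same volume of non-loaded microspheres had been injected. Retinas were taken 2 months later, so all samples share the strain, the sex, the age and the injection. Whether the samples are separate animals is not stated in the labels, and p-values therefore reflect only how far these samples vary, part of which may be technical. The comparison asks how transcript levels differ after the drug and after the carrier alone.

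Corticoids enter cells and bind the mineralocorticoid receptor (Nr3c2) or the glucocorticoid receptor (Nr3c1), which are held ready by heat shock chaperones, move to the nucleus and act on shared DNA elements. The mineralocorticoid receptor binds cortisol and corticosterone as tightly as aldosterone, and the enzyme encoded by Hsd11b2 protects it in the kidney by inactivating those glucocorticoids, whereas the enzyme of Hsd11b1 mostly regenerates them. In the retina both receptors are found in Müller glia, where mineralocorticoid receptor activity is known to affect potassium and water channels. Spironolactone is an antagonist of the mineralocorticoid receptor that also binds other steroid receptors.

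Of the 8 genes tested, 2 rose (Fkbp5 and Klf9) and 1 fell (Arl4d) with spironolactone at an adjusted p under 0.05 (edgeR quasi-likelihood test, Benjamini-Hochberg adjustment over 13242 genes), where 1.87% of all tested genes were called higher and 0.763% lower, 2.63% in all. The genes had been listed with earlier results of these data known, so their count is a description and no support for a change of the pathway. Their median log2 fold change was 0.004, and that of all tested genes was −0.003. Fkbp5 and Klf9 were about 1.3-fold higher, and neither receptor gene and none of Sgk1, Tsc22d3 and Nedd4l passed the test. In whole tissue, fewer cells of a type and less RNA per cell cannot be told apart.

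The promoter sequences of the genes that changed are given here because Fkbp5 and Klf9 rose together and Arl4d fell. RefSeq promoters (250 bases before to 50 after a start site; build GRCr8) were found for 7 of the 10 genes, among them Nr3c1, Sgk1, Tsc22d3 and Nedd4l, while Nr3c2, Hsd11b1 and Hsd11b2 were not matched. Each is written 5′ to 3′ on the strand of the gene, and capitals mark either the hexamer AGAACA, an arm of the corticoid response element, or the GC box GGGCGG, each on either strand (CCGCCC is the GC box read on the opposite strand). The Fkbp5 promoter lies at chr20:6543506-6543805 on the minus strand, the Klf9 promoter at chr1:230126396-230126695 on the plus strand and the Arl4d promoter at chr10:87100673-87100972 on the plus strand.
Fkbp5: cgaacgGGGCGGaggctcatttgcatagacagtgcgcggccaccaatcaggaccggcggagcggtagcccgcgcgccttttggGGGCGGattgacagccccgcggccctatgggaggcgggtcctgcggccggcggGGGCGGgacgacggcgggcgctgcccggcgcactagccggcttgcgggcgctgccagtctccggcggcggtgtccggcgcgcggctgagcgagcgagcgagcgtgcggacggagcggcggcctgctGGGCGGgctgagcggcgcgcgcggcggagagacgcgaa
Klf9: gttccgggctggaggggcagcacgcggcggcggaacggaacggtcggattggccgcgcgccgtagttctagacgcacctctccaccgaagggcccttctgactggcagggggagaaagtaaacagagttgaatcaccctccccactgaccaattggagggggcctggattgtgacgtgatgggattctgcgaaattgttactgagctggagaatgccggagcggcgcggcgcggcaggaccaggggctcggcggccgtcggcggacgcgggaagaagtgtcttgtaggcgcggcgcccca
Arl4d: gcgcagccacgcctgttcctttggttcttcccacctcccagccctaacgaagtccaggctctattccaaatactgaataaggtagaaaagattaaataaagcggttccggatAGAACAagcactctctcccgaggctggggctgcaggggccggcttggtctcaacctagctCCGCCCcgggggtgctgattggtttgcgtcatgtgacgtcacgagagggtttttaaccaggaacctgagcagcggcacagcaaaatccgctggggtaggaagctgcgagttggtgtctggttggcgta
The full palindromic element (AGAACA, any 3 bases, TGTTCT) was in 0.0149% of the 33469 promoters of this length, and a relaxed form (GNACA, any 3 bases, TGTNC, where N is any base) in 0.439%. Neither was found in any promoter entry of the 7 genes. The hexamer AGAACA was in 20.7% of all promoters and, among the 7 genes, in that of Arl4d, from 138 to 133 bases before the start site. GC boxes, searched after the other motifs had been seen, were in 33.1% of all promoters, with 4 in the Fkbp5 promoter, 1 in the Arl4d promoter and 0 in the Klf9 promoter. Among the genes that were not called, the Nedd4l promoter held 6, the 2 promoters of Nr3c1 held 1 and 4, the 3 of Sgk1 held 0, 2 and 4, and the 3 of Tsc22d3 held 1, 3 and 0. The Fkbp5 promoter held 77% G and C, the Klf9 promoter 65.3% and the Arl4d promoter 55.7%, against 40.7% in a Sgk1 promoter to 81.7% in that of Nedd4l among the genes not called and a median of 51.7% over all promoters. These matches are descriptions of the window and say nothing of binding there or elsewhere in the gene.

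The libraries were compared for depth and for markers of other tissues. They held 10575218, 12589467 and 11174930 counts with spironolactone and 9996198, 11572838 and 11966770 counts with non-loaded microspheres. No pair of libraries agreed within sampling noise, with a chi-square per gene from 4.001 to 15.99. Pairs within a group ran from 4.001 to 7.124 and pairs between groups from 4.723 to 15.99, so these ranges overlapped. The lowest value between groups was for spironolactone replicate 1 and non-loaded replicate 3. Spironolactone replicate 3 lay furthest from the non-loaded libraries, at 11.39 to 15.99. All 13 retinal markers passed the filter, with a summed level of 14330 to 15440 CPM with spironolactone against 16550 to 20320 CPM with non-loaded microspheres (CPM are counts scaled to a common library total with TMM factors). Without Gnat1 the sums of the other 12 were 8853 to 9016 CPM with spironolactone against 8886 to 9070 CPM, so the gap in this sum was that of Gnat1. Of the 13, Gnat1 was called lower and Crx, a photoreceptor transcription factor gene, higher. For the pigment epithelium, 0 of 10 tested markers were called, with sums of 91.9 to 156.4 CPM with spironolactone against 148.3 to 171.7 CPM. Lens and cornea markers summed to 5.69 to 47.3 CPM with spironolactone against 6.27 to 6.99 CPM, and Crygc and Mip were listed at 0 in all 6 libraries. The highest sum came from spironolactone replicate 1, where the corneal keratin genes Krt12 and Krt5 measured 25.1 and 11.6 CPM. Without that library Fkbp5 (0.40, adjusted p = 0.00658), Klf9 (0.31, adjusted p = 0.00728) and Arl4d (−0.40, adjusted p = 0.00994) were still called. Blood markers summed to 28.8 to 60.3 CPM with spironolactone against 34.9 to 46.0 CPM, and optic nerve glia markers to 16.2 to 19.5 CPM against 21.5 to 22.3 CPM, with Mobp listed at 0 throughout. The part of these tissues in the results was not tested beyond leaving out each library. The sample titles carry the numbers 8, 10 and 11 with spironolactone and 2, 3 and 4 with non-loaded microspheres, so anything that follows those numbers cannot be told apart from the treatment.

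Per transcript length, the 10 genes spanned levels from listed at 0 to 335.98 TPM (each gene's share of all transcripts, after reads are divided by transcript length). Over all 6 samples Arl4d, a small GTPase of the ARF family, had the highest mean level (283 ± 43.6 TPM, SD), followed by the kinase gene Sgk1 (235.5 ± 8.06 TPM), whose range of 224.83 to 245.05 TPM lay within that of Arl4d (212.74 to 335.98 TPM). Klf9 came next at 128.7 ± 18.9 TPM, then Nr3c1 at 85.6 ± 3.99, Tsc22d3 at 46.6 ± 2.73, Fkbp5 at 35.4 ± 5.95, Nr3c2 at 23.0 ± 1.84 and Nedd4l at 14.96 ± 1.59 TPM. The ranges of these neighbours over the 6 samples did not overlap. Hsd11b1 (0.752 ± 0.407 TPM) and Hsd11b2 (0.283 ± 0.210 TPM) lay far below and overlapped each other. By mean TPM, Nr3c1 stood above 84% and Nr3c2 above 47.3% of the tested genes.

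**Figure D1:**
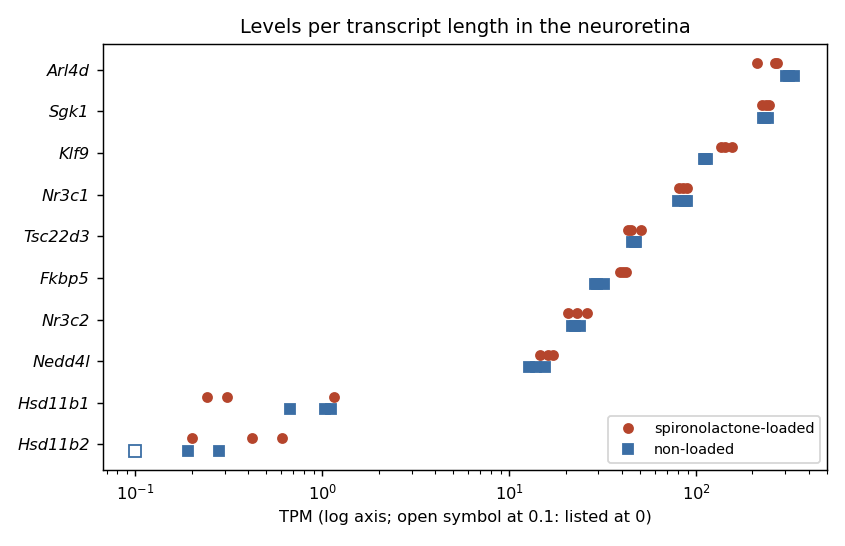
Level of each of the 10 genes in TPM (log axis) in the 3 spironolactone-loaded and 3 non-loaded libraries, 1 symbol per library, ordered by the mean over all 6. Arl4d and Sgk1 share the top of the order, and Hsd11b1 and Hsd11b2 lie near or under 1 TPM, with Hsd11b2 listed at 0 in 1 non-loaded library.

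The receptors came first among the comparisons because Nr3c2 encodes the target of the drug. Nr3c2 measured 27.2, 31.8 and 35.3 CPM in the spironolactone libraries, against 32.5, 30.5 and 30.0 CPM in the non-loaded libraries. The spironolactone values lay on both sides of the non-loaded ones, with a wider spread (SD 4.05 against 1.30 CPM). The log2 fold change was 0.02 ± 0.10 (SE; edgeR adjusted p = 0.947), with a 95% interval from −0.19 to 0.23. It was 0.11 without spironolactone replicate 1 and −0.07 without spironolactone replicate 3, in neither case past the test.

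Nr3c1 measured 141.3, 140.8 and 149.8 CPM with spironolactone and 146.5, 143.0 and 147.2 CPM with non-loaded microspheres. The groups overlapped, and the log2 fold change was −0.02 ± 0.06 (edgeR adjusted p = 0.934; 95% interval −0.14 to 0.10). Per length, the glucocorticoid receptor transcript was 4.13, 3.52 and 3.45 times as abundant as the mineralocorticoid receptor transcript in the spironolactone libraries and 3.75, 3.70 and 3.90 times in the non-loaded libraries. The ratio did not differ beyond this spread (exact two-sided permutation test of the log2 ratio, p = 0.7; the smallest p that 3 against 3 samples allow is 0.1).

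The enzymes that set which corticoid reaches the receptors were barely counted, and both genes fell under the filter. Hsd11b1 had 9, 3 and 2 counts with spironolactone and 5, 12 and 10 counts without the drug, and the groups overlapped. Hsd11b2 had 4, 7 and 2 counts with spironolactone and 0, 2 and 2 counts with non-loaded microspheres, and a count of 2 occurred in both groups. The 0 counts allow up to 3 counts, or 0.303 CPM in that library, by counting error alone. With no filter the log2 fold changes were −0.93 ± 0.69 for Hsd11b1 (edgeR adjusted p = 0.615) and 1.58 ± 1.05 for Hsd11b2 (edgeR adjusted p = 0.565), so a difference was not detectable at this depth. H6pd, whose enzyme supplies the cofactor of the Hsd11b1 enzyme, measured 12.2, 11.7 and 13.8 CPM with spironolactone against 12.5, 9.94 and 11.3 CPM (0.16 ± 0.14, edgeR adjusted p = 0.642).

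Fkbp5 encodes FKBP51, a co-chaperone that lowers the affinity of the glucocorticoid receptor for its hormone and is itself induced by corticoids. It measured 72.7, 70.6 and 72.0 CPM with spironolactone, against 57.4, 54.5 and 49.997 CPM with non-loaded microspheres. The groups did not overlap, and the lowest spironolactone library lay well above the highest non-loaded one. The log2 fold change was 0.41 ± 0.07 (edgeR adjusted p = 0.00362), a 1.33-fold level, and its 95% interval ran from 0.26 to 0.56 on the log2 scale. It ranked 83rd by p among the 13242 tested genes.

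Klf9, a zinc-finger transcription factor gene that corticoid and thyroid hormone receptors induce, measured 194.6, 178.6 and 184.9 CPM with spironolactone, against 148.6, 149.7 and 140.5 CPM with non-loaded microspheres. Again every spironolactone library was above every non-loaded one. The log2 fold change was 0.35 ± 0.06 (edgeR adjusted p = 0.00315), or 1.27-fold, with a 95% interval from 0.22 to 0.47 on the log2 scale. Both rises were called without each of the 6 libraries in turn, with log2 fold changes from 0.36 to 0.46 for Fkbp5 and from 0.31 to 0.38 for Klf9.

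**Figure D2:**
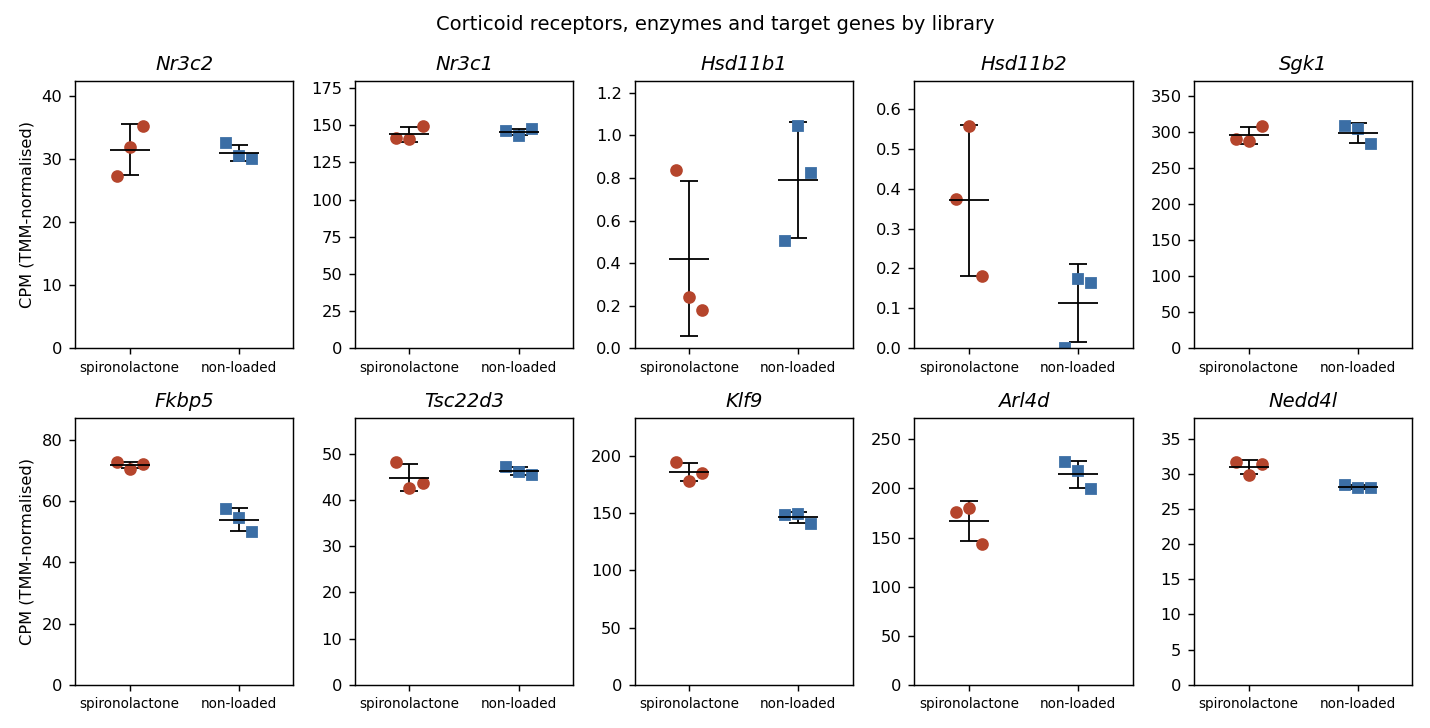
TMM-normalised CPM of the 10 genes in each library, spironolactone-loaded (red circles) left of non-loaded (blue squares), with the mean and SD of 3 libraries as black bars and every axis starting at 0. Fkbp5 and Klf9 are higher and Arl4d lower in every spironolactone library, and the receptor genes, Sgk1 and Tsc22d3 overlap between the groups.

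A pair of other textbook corticoid targets did not pass the test. Tsc22d3, which encodes the anti-inflammatory leucine zipper protein GILZ, measured 48.2, 42.6 and 43.7 CPM with spironolactone against 47.0, 46.1 and 45.4 CPM (−0.04 ± 0.08, edgeR adjusted p = 0.848; 95% interval −0.21 to 0.12). Sgk1, the kinase that mineralocorticoids induce to raise sodium channel activity, measured 290.0, 287.0 and 308.2 CPM with spironolactone against 308.7, 304.2 and 282.9 CPM (−0.02 ± 0.06, edgeR adjusted p = 0.933; 95% interval −0.14 to 0.11). The groups overlapped for both genes, and both intervals end below the lower bounds for Fkbp5 and Klf9.

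A direct look at the targets against each other was added after the values were seen. Per length, Fkbp5 over Tsc22d3 was 0.831, 0.914 and 0.907 in the spironolactone libraries and 0.671, 0.650 and 0.606 in the non-loaded libraries. Klf9 over Tsc22d3 was 3.06, 3.18 and 3.20 with spironolactone and 2.39, 2.45 and 2.34 with non-loaded microspheres. Fkbp5 over its close relative Fkbp4, which encodes the co-chaperone FKBP52, was 0.188, 0.190 and 0.196 with spironolactone and 0.149, 0.137 and 0.133 with non-loaded microspheres. In none of the 3 ratios did the groups overlap, and each reached the exact two-sided permutation p of 0.1, the smallest that 3 against 3 samples allow, or 0.125 adjusted over all 5 ratios compared. Each ratio sets a gene already called higher over a gene with little difference, so these p-values restate the calls and add no support.

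Nedd4l encodes the ubiquitin ligase NEDD4-2, which removes the epithelial sodium channel from the membrane until the kinase SGK1 phosphorylates it. It measured 31.6, 29.8 and 31.3 CPM with spironolactone against 28.4, 27.91 and 27.96 CPM with non-loaded microspheres. The groups did not overlap, which held for 20.9% of all tested genes, and the log2 fold change of 0.14 ± 0.09 did not pass (edgeR adjusted p = 0.476; 95% interval −0.04 to 0.32). In TPM the groups did overlap, at 17.11, 14.57 and 16.08 TPM with spironolactone and 12.72, 13.82 and 15.46 TPM with non-loaded microspheres. The reads of Nedd4l are shared among 3 transcripts, and the abundance-weighted length ran from 3624 to 3830 bases with spironolactone and from 3508 to 4204 bases without the drug. For the other genes with several transcripts and enough counts, the weighted length of Sgk1 stayed between 2445 and 2452 bases. That of Nr3c1 lay between 3196 and 3267 bases with spironolactone and between 3129 and 3284 bases with non-loaded microspheres.

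Arl4d measured 176.1, 180.3 and 143.1 CPM with spironolactone, against 226.7, 217.5 and 199.1 CPM with non-loaded microspheres. Every spironolactone library was below every non-loaded one, and spironolactone replicate 3 stood apart at the low end. The log2 fold change was −0.36 ± 0.08 (edgeR adjusted p = 0.0190), or 0.777-fold, with a 95% interval from −0.53 to −0.20 on the log2 scale. The call was lost without spironolactone replicate 3 (adjusted p = 0.0674), non-loaded replicate 1 (0.112) or non-loaded replicate 2 (0.0705), and on log2(TPM + 1) with limma (0.125).

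Among photoreceptor markers Gnat1 fell as well. Gnat1, the rod transducin alpha subunit, measured 5570, 6541 and 5482 CPM with spironolactone against 11363, 11180 and 7662 CPM with non-loaded microspheres (log2 fold change −0.78 ± 0.11, edgeR adjusted p = 0.000705). Also among photoreceptor markers, Pde6b, a subunit of the rod phosphodiesterase (−0.10 ± 0.06, edgeR adjusted p = 0.469), and Nrl, a rod transcription factor gene (−0.22 ± 0.08, edgeR adjusted p = 0.161), did not pass and their groups overlapped, and Crx was called higher (0.25 ± 0.06, edgeR adjusted p = 0.0286). Within each group of 3, the libraries ranked in the same order for Arl4d and Gnat1, with replicate 2 highest and replicate 3 lowest with spironolactone, and replicate 1 highest and replicate 3 lowest with non-loaded microspheres. For Pde6b, Nrl and Crx spironolactone replicate 1 was highest and replicate 3 lowest, so with spironolactone only the lowest library was shared. Among the non-loaded libraries Nrl had the same order as Arl4d and Gnat1 (483.2, 439.8 and 429.7 CPM in replicates 1 to 3). Pde6b was highest in non-loaded replicate 2 and lowest in replicate 3, and Crx was highest in replicate 3. Per length, Arl4d over Gnat1 was 0.0520, 0.0452 and 0.0429 with spironolactone and 0.0328, 0.0320 and 0.0427 with non-loaded microspheres (exact two-sided permutation p = 0.1, the smallest possible, and 0.125 adjusted over the 5 ratios compared). The groups nearly met, at 0.0429 and 0.0427 in replicate 3 of each. Gnat1 fell further than Arl4d, so the rise of the ratio restates those differences and adds no support. It sets Arl4d against Gnat1 only, not against rod genes in general. This comparison was chosen after the values were seen, and the part of rod cell content in the result for Arl4d was not tested.

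**Figure D3:**
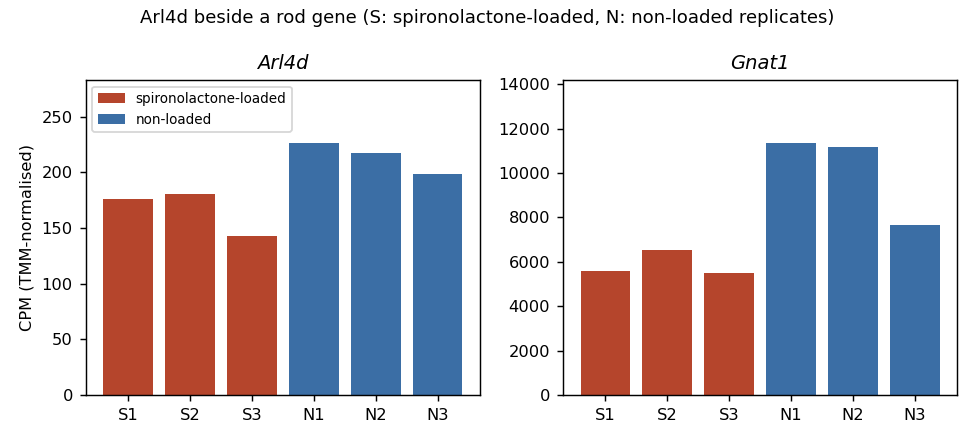
TMM-normalised CPM of Arl4d and of the rod gene Gnat1 in each library (S1 to S3 spironolactone-loaded, N1 to N3 non-loaded; 1 bar per library, axes from 0). Both genes are lower in the spironolactone libraries and rank the libraries of a group in the same order. Pde6b, Nrl and Crx (not shown) did not share the full order with spironolactone, and Nrl shared that of the non-loaded libraries.

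**Figure D4:**
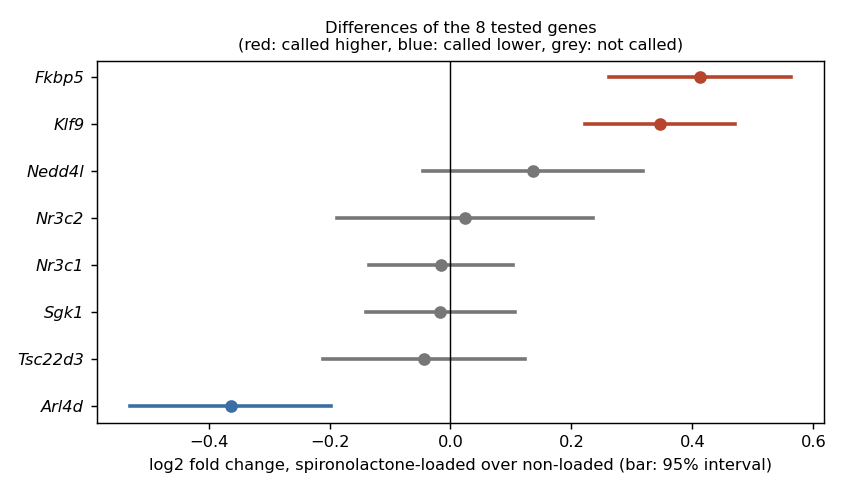
Log2 fold change of the 8 tested genes, spironolactone-loaded over non-loaded, with 95% intervals from the edgeR fit over 3 against 3 libraries. The intervals of Fkbp5 and Klf9 lie above 0 and that of Arl4d below 0, and the other 5 include 0.

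Further genes of the pathway were grouped by role, again with earlier results known. Among 15 tested chaperones and immunophilins that hold the receptors, 0 rose and 1 fell, against 1.87% and 0.763% of all tested genes. Their median log2 fold change was −0.04. The gene that fell was Ahsa1, a co-chaperone that activates HSP90 (55.8 ± 0.593 CPM with spironolactone against 67.0 ± 2.32 CPM, SD, n = 3 each; log2 fold change −0.26 ± 0.07, edgeR adjusted p = 0.0474). It was still called without spironolactone replicate 1 (adjusted p = 0.0485), but not without any one of the other 5 libraries (adjusted p of 0.0904 to 0.172), with library totals (0.0585), with effective lengths (0.0564), on log2(TPM + 1) (0.114) or on log2(TPM + 0.1) (0.117). The chaperone genes Hspa8 (−0.21 ± 0.07, edgeR adjusted p = 0.102) and Dnajb1 (−0.17 ± 0.06, edgeR adjusted p = 0.15) did not pass, and neither did Fkbp4 (−0.04 ± 0.06, edgeR adjusted p = 0.78). Hsp90aa1 is listed at 0 in all 6 libraries. Whether its transcript was absent or its reads were not assigned to the gene was not tested.

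Among 15 tested coregulators, the proteins through which the receptors switch genes on or off, 2 rose and 0 fell. Over all tested genes 1.87% were called higher and 0.763% lower. Of the 15, 13 had a positive log2 fold change (median 0.13, against −0.003 over all tested genes), and the list as a whole was not tested. Ppargc1a, a coactivator of mitochondrial genes, measured 81.4 ± 5.79 CPM with spironolactone against 60.9 ± 4.98 CPM (0.42 ± 0.08, edgeR adjusted p = 0.00544). Ncor1, a corepressor that antagonist-bound receptors can recruit, measured 580.1 ± 67.5 CPM with spironolactone against 458.9 ± 8.42 CPM (0.34 ± 0.07, edgeR adjusted p = 0.0153). Its spironolactone libraries stood at 526.9, 557.4 and 656.1 CPM against 468.0, 457.1 and 451.5 CPM. Ppargc1a was not called without spironolactone replicate 2 (adjusted p = 0.0518). Ncor1 was not called without spironolactone replicate 2 or 3 or non-loaded replicate 1 or 2 (adjusted p of 0.0613 to 0.0694). Neither passed on log2(TPM + 1) (0.0641 and 0.0903). The coactivator genes Ncoa1 (0.24 ± 0.06, edgeR adjusted p = 0.0641) and Ncoa2 (0.18 ± 0.06, edgeR adjusted p = 0.155) did not pass.

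Of the sodium channel and SGK1 pathway, 0 of 20 tested genes were called in the edgeR fit (median log2 fold change 0.05), and 4 had an unadjusted p under 0.05, as did 15.8% of all tested genes. Scnn1a, the alpha subunit of the epithelial sodium channel, had at most 26 counts and measured 1.21, 2.07 and 1.35 CPM with spironolactone against 1.92, 2.09 and 1.07 CPM (−0.10 ± 0.37, edgeR adjusted p = 0.934). The smallest p belonged to Mlst8, a subunit of the mTOR complex that activates SGK1 (−0.18 ± 0.06, edgeR adjusted p = 0.156), and to Slc12a3, the thiazide-sensitive cotransporter (1.27 ± 0.45 at 6 to 25 counts, edgeR adjusted p = 0.164).

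Among 26 tested genes that glucocorticoids are known to induce, 1 rose and 1 fell (median 0.04), against 1.87% and 0.763% of all genes. Cebpb, a transcription factor gene that stress and cytokines also induce, measured 21.4, 25.7 and 23.8 CPM with spironolactone against 8.19, 10.7 and 12.8 CPM (1.15 ± 0.14, edgeR adjusted p = 0.000186). Gadd45b, a stress response gene, measured 36.0, 36.9 and 32.4 CPM with spironolactone against 49.0, 45.4 and 43.1 CPM (−0.38 ± 0.09, edgeR adjusted p = 0.0262). Gadd45b was not called without spironolactone replicate 2 or 3 or non-loaded replicate 1 or 2 (adjusted p of 0.0817 to 0.137) or on log2(TPM + 1) (0.0782). The clock gene Per1 measured 179.5, 170.0 and 175.8 CPM with spironolactone against 164.2, 163.7 and 152.3 CPM (0.13 ± 0.06, edgeR adjusted p = 0.283). The repressor genes Bcl6 (0.31 ± 0.09, edgeR adjusted p = 0.0889) and Nfil3 (0.28 ± 0.11, edgeR adjusted p = 0.204) did not pass.

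Among 13 tested genes that aldosterone is known to induce in other tissues, 1 rose and 0 fell (median 0.02). Over all tested genes 1.87% were called higher and 0.763% lower. The gene that rose was Vegfa, the vascular growth factor gene, at 234.3, 248.7 and 217.2 CPM with spironolactone against 164.6, 170.1 and 180.4 CPM (0.44 ± 0.06, edgeR adjusted p = 0.000691). The collagen gene Col3a1 (1.47 ± 0.50 at 1 to 20 counts, edgeR adjusted p = 0.146) and Ptgs2, which encodes cyclooxygenase 2 (0.39 ± 0.17, edgeR adjusted p = 0.263), did not pass. Of 10 tested genes of corticoid synthesis and metabolism, 0 were called in the edgeR fit (median 0.15), and 1 had an unadjusted p under 0.05 (against 15.8% of all genes), Srd5a3 (0.38 ± 0.16, edgeR adjusted p = 0.275). Cyp11b2, the aldosterone synthase gene, had 8 to 23 counts (0.53 ± 0.41, edgeR adjusted p = 0.578), and its close copies make the division of its reads uncertain.

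Of the other steroid receptors 5 were tested and 0 were called, where 2.63% of all tested genes were called. All 5 log2 fold changes were negative (median −0.45, against −0.003 over all tested genes), and the list as a whole was not tested. The larger falls, of Esr1, Esr2 and Pgr, rest on low counts, and the median is the value of Pgr. In TPM the means of Esr1 were nearly equal, at 0.577 with spironolactone and 0.583 with non-loaded microspheres. The mean TPM of each of the other receptors tested was lower with spironolactone. In the same edgeR fit 1 had an unadjusted p under 0.05 (against 15.8% of all genes), the membrane progesterone receptor component gene Pgrmc1 (−0.15 ± 0.06, edgeR adjusted p = 0.205). Esr1 (−1.02 ± 0.49 at 3 to 12 counts, edgeR adjusted p = 0.33) and the progesterone receptor gene Pgr (−0.45 ± 0.38 at 12 to 29 counts, edgeR adjusted p = 0.62) did not pass. Neither did Esr2 (−0.62 ± 0.34 at 14 to 28 counts, edgeR adjusted p = 0.408).

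**Figure D5:**
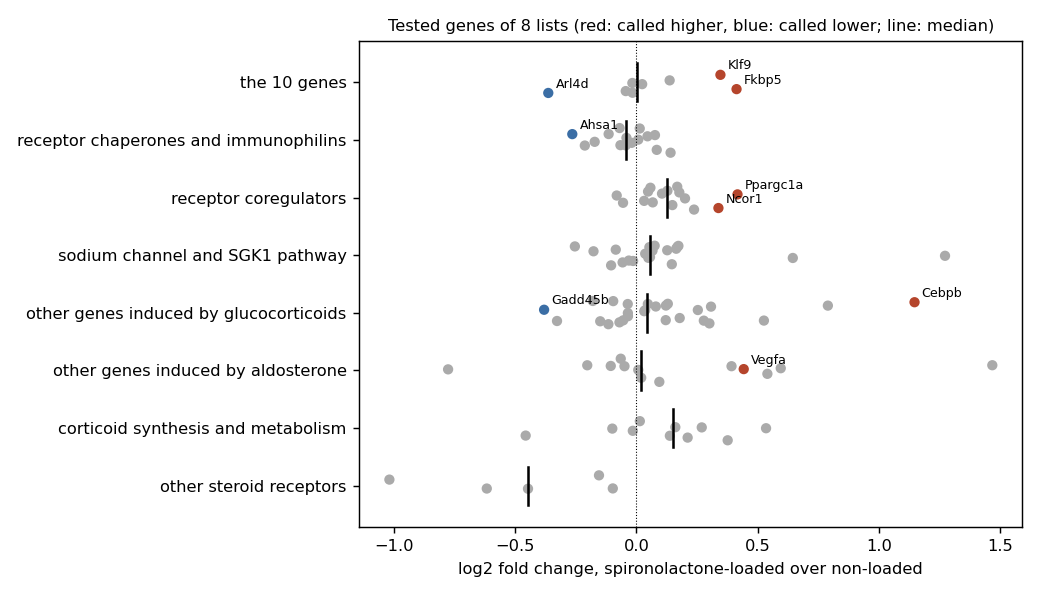
Log2 fold change, spironolactone-loaded over non-loaded, of the tested genes among the 10 and of 7 further lists of corticoid pathway genes (1 point per gene, black line the median of a list). The coregulators lie mostly above 0, with Ppargc1a and Ncor1 called higher, and the 5 other steroid receptors lie below 0 with none called. Of these receptors, Esr1, Esr2 and Pgr had at most 29 counts in any library.

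Patterns over the 6 samples were compared by the root mean square difference of log2 CPM centred on each gene's mean, over 9841 named genes of mean log2 CPM of at least 3. The nearest to Fkbp5 were the tyrosine phosphatase gene Ptpn2 (0.041), Frmd4b (0.046) and Klf9 (0.054). Fkbp5 and Klf9 had both been called higher by similar amounts in these libraries, so their closeness largely restates those calls. Fkbp5 was 7th nearest to Klf9, after Trip10 (0.042), the protease gene Mbtps2 (0.043) and Cep135 (0.045) among others. The nearest to Arl4d were Tmem98 (0.035), Amer1 (0.039) and the transcription factor gene Etv5 (0.042). The nearest to Nr3c2 were the transcription factor gene Hey2 (0.027), the importin gene Kpna3 (0.029) and Kitlg (0.031). Of all these neighbours, Ptpn2, Frmd4b, Klf9 and Fkbp5 were called, and the named neighbours of Arl4d and Nr3c2 and the first 3 of Klf9 were not. With so many genes and 6 samples such neighbours are a description.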

How the data were processed

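RNA was sequenced from the neuroretina of 6 samples, grouped by the labels' treatment field. The tools RSEM 1.2.28, STAR 2.5.3a, Trimmomatic and FastQC and the build rn6 are named, without roles, in the submitters' processing notes. The annotation release and whether strand was used are details not given in the sources used here, so overlapping genes may share reads. The authors deposited RSEM gene tables whose expected counts, per the file headers, are not normalised; they were rounded to whole numbers. TPM was also deposited by the authors, and so were transcript lengths; FPKM was not used here.

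Genes were kept by filterByExpr and tested in R 4.3.3 with edgeR 4.0.16 (TMM factors; glmQLFit and glmQLFTest, two-sided). P-values were adjusted by Benjamini-Hochberg over all 13242 genes, with calls made under 0.05. A log2 fold change above 0 is higher with spironolactone. The standard error is the log2 fold change over the square root of F. Intervals are 95% intervals of that fit. The genes and lists were chosen with earlier results of these data known; 4 list names (Ccn2, Cyp11b1, Hsd3b1, Hba1) were not matched. Named beside the 10 genes are the called genes of each list and up to 2 others of smallest p. Per1, Scnn1a, Fkbp4, H6pd, Pgr, Esr2 and nearest patterns are also named. The marker lists, and genes chosen after their values were seen, are as stated. Some list genes are not reported here. Alternatives were other scalings, DESeq2 1.42.0, limma 3.58.1, other filters, effective lengths, a threshold of 0.1 and each library left out.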

Additional observations from a re-analysis of the deposited data

How the results depend on the processing

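Fkbp5 and Klf9 were called higher under all 11 other settings and without each of the 6 libraries. Over the 11 settings their log2 fold changes ran from 0.41 to 0.43 and from 0.34 to 0.36. The adjusted p reached 0.0490 and 0.0372 with limma on log2(TPM + 1) and log2(TPM + 0.1). Without each library the log2 fold changes ran from 0.36 to 0.46 and from 0.31 to 0.38. The number of the 10 genes called lower was 0 on log2(TPM + 1) and on log2(TPM + 0.1), where Arl4d measured −0.35 (adjusted p = 0.125 in both), and 0 or 1 without each library; the cause was not tested. Genes near 0 changed sign without passing. Without each library, Nr3c2 ran from −0.068 to 0.11, Nr3c1 from −0.049 to 0.00026 and Sgk1 from −0.058 to 0.0074, and Sgk1 was at 0.0017 on log2(TPM + 1) and on log2(TPM + 0.1).

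Over all genes, 247 were called higher and 101 lower. The counts were 439 and 163 with no filter, 82 and 18 on log2(TPM + 1), 79 and 16 on log2(TPM + 0.1), and 416 and 177 at an adjusted p of 0.1, and ran from 81 to 421 higher and from 30 to 200 lower without each library. The share higher was 71% in the reported fit, 82% on log2(TPM + 1) and 83.2% on log2(TPM + 0.1). Among the lists, chaperones held 1 lower gene, against 2 in DESeq2 and with no filter and 0 with library totals, effective lengths or either TPM scale. Coregulators held 2 higher genes, against 0 on both TPM scales and 0 to 4 without each library. Glucocorticoid-induced genes held 1 higher, against 2 with no filter and at an adjusted p of 0.1, and 1 lower, against 0 on both TPM scales. Aldosterone-induced genes held 1 or 2 higher without each library. No paired analysis was possible because the labels give the groups no shared replicate numbers. Depth limits Hsd11b1 and Hsd11b2, both at 12 counts or fewer in every library.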
